A study of Homo sapiens with 18 samples.

Results

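The genes described here are the 10 genes AURKA, AURKB, BUB1, BUB1B, TTK, NEK2, PLK1, PLK2, PLK3 and PLK4, which encode the Aurora kinases, the Polo-like kinases, the kinases of the spindle checkpoint and a centrosome kinase. They were chosen by name, not by a rule on their values, though earlier results of these data were known. They were 10 of the 23368 genes in the count tables. RNA was sequenced from SJSA-1 cells, an osteosarcoma cell line with amplified MDM2 and CDK4 genes, in 6 groups of 3 replicates. The control group received DMSO, the solvent. The Nutlin group received Nutlin, an antagonist of MDM2 and thereby an activator of p53, at 20 µM for 6 h. The PD24 and PD30 groups received PD0332991 (Palbociclib), an inhibitor of CDK4 and CDK6, at 10 µM. In PD24 the inhibitor was present for 24 h and removed for the last 6 h, and in PD30 it was present for all 30 h. N+PD24 and N+PD30 combined these schedules with Nutlin during the last 6 h. The dose of Nutlin was taken from the sample labels, and the scheme of the study also names a lower dose. All groups came from 1 cell line, so no other genetic background was tested.

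Dividing cells make most of these kinases late in the cell cycle. The Aurora kinases and PLK1 build the spindle and drive mitotic entry and cytokinesis, NEK2 separates the centrosomes, PLK4 starts centriole duplication, and TTK (also called MPS1), BUB1 and BUB1B (BUBR1) hold anaphase back until all chromosomes are attached. PLK2 and PLK3 carry the same Polo-box fold but are stress- and growth-factor-responsive genes with roles outside of mitosis, and both are known as targets of p53. The comparisons ask how the mRNA of the 8 kinases of cell division and that of PLK2 and PLK3 differ under CDK4/6 inhibition, under MDM2 inhibition and under both.

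Total counts per library ranged from 12704845 (N+PD30 replicate 1) to 40231041, with a median of 29608936. Levels are given as CPM, the read count of a gene scaled by its library's own total. Replicates differed by more than sampling noise. The study describes the libraries as biological triplicates. The labels do not say that they came from separate cultures, and p-values measure the spread between these libraries. All 6 of the 6 osteoblast and mesenchymal markers were detected, at a summed level of 5509 to 8874 CPM per library. The 3 leukocyte markers summed to 0 to 0.623 CPM and the 3 epithelial ones to 0.970 to 3.005 CPM. In bulk RNA, fewer cells in G2 or mitosis and less mRNA per cell cannot be told apart.

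In the DMSO group the 10 kinases were not equally abundant. Per kilobase of the annotated canonical transcript, PLK2 was the highest at 113 ± 3.52 CPM per kb (SD, n = 3). AURKA followed at 91.1 ± 2.09, AURKB at 80.3 ± 3.45 and PLK1 at 76.9 ± 7.73 CPM per kb, where AURKB and PLK1 overlapped between replicates. BUB1B (47.1 ± 5.44 CPM per kb) and BUB1 (41.5 ± 3.74 CPM per kb) overlapped as well. NEK2, TTK and PLK4 lay lower, at 27.4 ± 1.19, 20.9 ± 1.99 and 13.4 ± 1.38 CPM per kb. PLK3 was the lowest at 3.11 ± 0.268 CPM per kb, so the p53-responsive pair stood at the 2 ends of this order. In the N+PD30 group the order of the same quantity was headed by PLK2 (127 ± 4.11) and PLK3 (11.8 ± 1.89), and none of the other 8 kinases exceeded a mean of 2.09 CPM per kb.

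The 10 genes lie on 9 chromosomes. On GRCh37, the build to which the reads were mapped, PLK1 spans chr16:23688977-23701688 on the plus strand with 10 exons in the canonical transcript, PLK2 spans chr5:57749809-57755966 on the minus strand with 14 exons, and PLK3 spans chr1:45266049-45271662 on the plus strand with 15 exons. PLK1 overlaps ERN2 and PLK3 overlaps TCTEX1D4 (annotated as DYNLT4) on the opposite strand. The library kit is not stated to keep the strand, so the reads of such partners cannot be told apart. ERN2 did not exceed 0.774 CPM and TCTEX1D4 did not exceed 0.521 CPM in any library. BUB1B overlaps PAK6 on the same strand, and PAK6 ranged from 0.277 CPM in DMSO to 4.69 CPM in N+PD24. Processed pseudogenes are annotated for AURKA, AURKB, NEK2 and BUB1, and how reads were split between gene and copy is uncertain. The copy of AURKA that the tables list, AURKAPS1, lay between 0.336 and 2.58 CPM.

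The sequences before the transcription start are shown for PLK1 and BUB1B, which fell with PD0332991, and for PLK2 and PLK3, which did not. PLK1, PLK2 and PLK3 are compared throughout, and BUB1B is 1 of the other division kinases. The division kinases not shown fell too, and these sequences do not stand for them. The sequences are the 250 bases upstream of the start in RefSeq on GRCh38.p14. They come from chr16:23678639-23678888 (PLK1, plus strand), chr15:40160819-40161068 (BUB1B, plus strand), chr5:58460087-58460336 (PLK2, minus strand) and chr1:44800127-44800376 (PLK3, plus strand). Capitals mark matches to the cell cycle genes homology region (CHR, searched as TTTGAA and TTTAAA), to the CCAAT box and to E2F motifs (searched as TTCCCGC and TTGGCGC), read on both strands. The p53 half-site consensus was searched as well and is not in capitals.
PLK1: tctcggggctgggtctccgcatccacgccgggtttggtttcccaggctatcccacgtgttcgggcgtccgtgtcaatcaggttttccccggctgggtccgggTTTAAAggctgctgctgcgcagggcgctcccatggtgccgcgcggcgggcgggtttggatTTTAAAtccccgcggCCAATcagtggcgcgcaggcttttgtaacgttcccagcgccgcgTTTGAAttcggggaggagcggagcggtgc
BUB1B: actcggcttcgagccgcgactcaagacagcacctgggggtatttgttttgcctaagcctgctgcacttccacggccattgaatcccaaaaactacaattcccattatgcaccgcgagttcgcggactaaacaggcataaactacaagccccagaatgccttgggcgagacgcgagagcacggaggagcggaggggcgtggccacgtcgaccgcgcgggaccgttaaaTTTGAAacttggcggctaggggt
PLK2: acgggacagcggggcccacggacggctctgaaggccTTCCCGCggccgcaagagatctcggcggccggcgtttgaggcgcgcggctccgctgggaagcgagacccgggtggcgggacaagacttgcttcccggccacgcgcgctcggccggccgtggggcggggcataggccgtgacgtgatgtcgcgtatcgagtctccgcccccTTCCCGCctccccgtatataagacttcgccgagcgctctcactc
PLK3: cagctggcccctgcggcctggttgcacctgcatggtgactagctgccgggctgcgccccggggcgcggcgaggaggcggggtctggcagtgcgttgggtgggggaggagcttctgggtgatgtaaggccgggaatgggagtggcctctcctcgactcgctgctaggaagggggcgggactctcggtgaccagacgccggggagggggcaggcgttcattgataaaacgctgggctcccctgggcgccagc
A RefSeq promoter was found for 8 of the 10 genes. In windows of 300 bases, which add 50 bases after the start, TTTGAA occurred in 15.2%, TTTAAA in 12.2%, the CCAAT box in 34.6% and TTGGCGC in 3.04% of 35116 promoters. PLK1 held TTTGAA from base -29 to -24, TTTAAA at 2 further places and a CCAAT box from base -73 to -69, and BUB1B held TTTGAA from base -23 to -18. Of the 6 division kinases with a promoter, 3 held a CHR and 5 a CCAAT box. The 8 genes had 11 windows, and a gene was counted if any of its windows held either form of a motif. The shares above are per window and per form, so they are not a like measure for these counts. In PLK4 the CHR lay after the start, and the CCAAT box was in another window. AURKB, BUB1 and NEK2, which fell as well, held no CHR. PLK2 held TTCCCGC at 2 places (6.55% of promoters hold it at least once) and 1 match to the p53 half-site consensus (6.63% of promoters), and no searched motif was in the window of PLK3. No match overlapped another in these 4 sequences, and a match describes letters, not binding.

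CDK4/6 inhibition for 30 h lowered the mRNA of all 8 division kinases, to between 1.01% (AURKB) and 4.23% (AURKA) of the DMSO mean, while PLK2 and PLK3 did not pass the test. AURKA, the kinase of spindle poles, was at 187, 180 and 189 CPM in the DMSO libraries and at 8.92, 8.20 and 6.39 CPM in the PD30 libraries. AURKB, the catalytic subunit of the chromosomal passenger complex, was at 97.6, 97.1 and 105 CPM in DMSO and at 0.930, 1.17 and 0.937 CPM in PD30. For both genes each PD30 library lay more than 10-fold below each DMSO library. The log2 fold change was -4.58 ± 0.13 (SE, approximated from the test statistic) for AURKA, with an adjusted p of 6.82e-09 in edgeR's quasi-likelihood test. For AURKB it was -6.63 ± 0.13, with an adjusted p of 1.68e-09 in the same test, the steepest fall of the 10 kinases.

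Among the Polo-like kinases the family split. PLK1 was at 184, 164 and 150 CPM in the DMSO libraries and at 4.41, 3.34 and 3.78 CPM in the PD30 libraries. PLK4 was at 48.6, 48.5 and 57.7 CPM in DMSO and at 1.27, 0.612 and 0.795 CPM in PD30. These groups were far apart, and PLK1 fell by 5.46 ± 0.13 and PLK4 by 5.89 ± 0.21 on the log2 scale. PLK2, by contrast, was at 311, 327 and 308 CPM in DMSO and at 285, 295 and 283 CPM in PD30. The PLK2 groups did not overlap, but the difference of -0.15 ± 0.07 on the log2 scale did not pass the threshold (adjusted p = 0.109, edgeR). PLK3 was at 7.88, 7.32 and 6.63 CPM in DMSO and at 6.96, 8.68 and 10.6 CPM in PD30. These values overlapped, with a log2 fold change of 0.25 ± 0.17 and an adjusted p of 0.251 (edgeR).

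The 3 kinases of the spindle checkpoint and NEK2 fell like the Auroras and PLK1. BUB1B, which binds and inhibits the anaphase-promoting complex activator CDC20, was at 153, 173 and 193 CPM in DMSO and at 2.96, 2.34 and 1.87 CPM in PD30, a log2 fold change of -6.20 ± 0.17. TTK, which recruits the other checkpoint proteins to kinetochores, went from 55.4, 63.6 and 66.8 CPM to 0.999, 1.14 and 0.681 CPM, a log2 fold change of -6.05 ± 0.18. BUB1, the kinetochore kinase that marks centromeric chromatin, fell by 5.45 ± 0.19 and NEK2 by 4.78 ± 0.19 on the log2 scale. Adjusted p-values of the 8 kinases ranged from 1.68e-09 to 6.35e-08 in edgeR's test. In this comparison 25.4% of the 15125 genes tested were lower at an adjusted p under 0.05 and 22.9% higher, and 9.48% were also lower by more than 2-fold. All 8 of the 8 division kinases met the stricter rule.

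Shortening the treatment to 24 h, with 6 h without the drug, gave falls of the same order. Against DMSO, the log2 fold changes of the 8 division kinases in PD24 ranged from -4.07 (AURKA) to -7.06 (AURKB), with adjusted p-values from 5.15e-09 to 1.14e-06 (edgeR), while 20.8% of the 15094 genes tested were lower and 17.5% higher. PLK1 was at 2.38, 3.12 and 2.29 CPM, a fall by 5.99 ± 0.17. PLK2 was at 362, 357 and 302 CPM, which overlapped with DMSO, and its log2 fold change was 0.13 ± 0.10 (adjusted p = 0.336, edgeR). PLK3 was at 10.2, 10.3 and 9.10 CPM, above each DMSO library, and rose by 0.46 ± 0.14 on the log2 scale (adjusted p = 0.0306, edgeR). The call on PLK3 was lost without DMSO replicate 2, DMSO replicate 3, PD24 replicate 1 or PD24 replicate 2, where the adjusted p reached up to 0.104. The comparisons of PD24, PD30 and Nutlin with DMSO share the same 3 DMSO libraries.

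**Figure D1:**
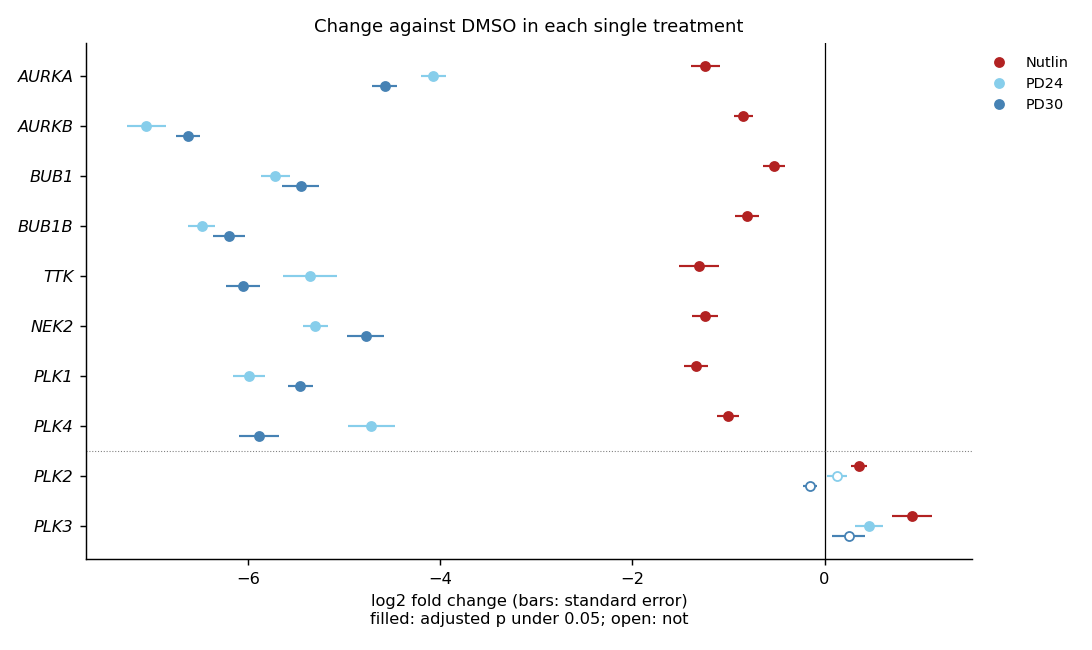
Log2 fold change (x axis, with its standard error) of each kinase in Nutlin, PD24 and PD30 against DMSO, where filled points passed an adjusted p of 0.05. The 8 division kinases lay between -4.07 and -7.06 in both PD0332991 schedules (24 h and 30 h). In Nutlin (6 h) they lay between -0.53 and -1.34. PLK2 and PLK3 lay between -0.15 and 0.91 across these treatments.

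Comparing PD30 with PD24 asks whether 6 h without the inhibitor changed the kinases. Of the 10 genes, only PLK4 passed the test, and its direction was that of a lower level in continued inhibitor. PLK4 was at 2.75, 1.77 and 1.32 CPM in PD24 and at 1.27, 0.612 and 0.795 CPM in PD30, groups that lay apart by a narrow margin. Its log2 fold change was -1.17 ± 0.35 (adjusted p = 0.0394, edgeR), against 12.9% of all 15171 genes lower and 12.2% higher. It lost the call in 4 of the 6 fits that leave out 1 library (without PD24 replicate 1 or 2, or PD30 replicate 2 or 3), with log2 values from -1.21 to -0.83 and an adjusted p up to 0.140 (edgeR). AURKA was at 12.4, 10.7 and 9.42 CPM in PD24, above each PD30 library, with a log2 difference of -0.51 ± 0.18 and an adjusted p of 0.0650 (edgeR). With replicates of the same number as a block, a pairing that the libraries' deviations bore out in this comparison, AURKA passed at an adjusted p of 0.00980 and PLK2 at 0.0203, with log2 values of -0.51 and -0.28 (edgeR). Without PD24 replicate 3, AURKA (adjusted p = 0.0363), PLK2 (adjusted p = 0.0221) and TTK (adjusted p = 0.0427) passed as well. PLK1 showed the opposite sign, 0.53 ± 0.21, and did not pass (adjusted p = 0.0871, edgeR).

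Nutlin alone lowered all 8 division kinases within 6 h and raised PLK2 and PLK3. The falls were far smaller than with PD0332991. That drug was given for 24 h or 30 h, so drug and exposure time cannot be told apart in this difference. PLK1 was at 63.4, 48.4 and 69.4 CPM, AURKA at 87.9, 53.3 and 74.5 CPM and TTK at 31.6, 15.6 and 21.6 CPM in the Nutlin libraries. Each of these values was below each DMSO library, and replicate 2 was the lowest of the 3 Nutlin libraries for all 8 kinases. PLK1 fell by 1.34 ± 0.13 on the log2 scale (adjusted p = 2.44e-05, edgeR). The mean CPM of PLK1, scaled by library totals alone, was 36.4% of that in DMSO. TTK fell by 1.31 ± 0.21, NEK2 by 1.25 ± 0.14, AURKA by 1.24 ± 0.15 and PLK4 by 1.01 ± 0.12. AURKB fell by 0.84 ± 0.10 and BUB1B by 0.80 ± 0.13. BUB1 showed the smallest fall, 0.53 ± 0.11 (adjusted p = 0.00281, edgeR), from 142, 156 and 170 CPM to 112, 87.6 and 98.02 CPM. In this comparison 28% of the 15766 genes tested were lower and 26.6% higher, so a call alone was common, whereas 8.42% were lower by more than 2-fold, as were 5 of the 8 kinases.

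PLK2 rose in Nutlin from 311, 327 and 308 CPM to 392, 347 and 375 CPM. The groups did not overlap, and the rise was 0.36 ± 0.08 on the log2 scale (adjusted p = 0.00491, edgeR), or 1.28-fold. Its size depended on the scaling. It ran from 0.23 to 0.47 over all alternatives, and the mean CPM by library totals alone was 118% of that in DMSO. PLK3 rose from 7.88, 7.32 and 6.63 CPM to 9.67, 10.8 and 17.4 CPM, where replicate 3 lay well above the other Nutlin libraries. The rise of PLK3 was 0.91 ± 0.21 on the log2 scale (adjusted p = 0.00395, edgeR), or 1.88-fold, and 0.63 at its lowest over all alternatives tried. Among 14 p53 targets of general knowledge, 14 of 14 rose, with a median log2 fold change of 2.47, where 26.6% of all genes rose and their median was 0.03. CDKN1A, the CDK inhibitor p21, rose by 4.56 and FDXR, a mitochondrial reductase, by 3.79 on the log2 scale, so both Polo-like genes lay far below the median of that list.

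With Nutlin present in both arms, PD0332991 again lowered the 8 division kinases. In N+PD30, PLK1 was at 3.31, 4.23 and 4.70 CPM, AURKA at 3.54, 4.20 and 4.99 CPM and BUB1B at 1.34, 1.48 and 0.823 CPM. TTK was at 0.157, 0.504 and 0.194 CPM, which were 2, 15 and 4 reads. These libraries lay below every Nutlin library for each of the 8 genes. Against Nutlin, the log2 fold changes ranged from -3.91 ± 0.18 (PLK1) to -6.25 ± 0.23 (BUB1B), with adjusted p-values of at most 8.13e-07 (edgeR), while 24.7% of the 15721 genes tested were lower and 24.3% higher. PLK2 did not pass, at 358, 362 and 340 CPM and a log2 difference of -0.11 ± 0.12 (adjusted p = 0.463, edgeR). PLK3 rose to 23.1, 27.7 and 32.0 CPM, above each Nutlin library, by 1.10 ± 0.21 on the log2 scale (adjusted p = 0.00138, edgeR).

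The N+PD24 libraries, whose deposited values had been divided by a size factor, were tested with limma on log2(CPM + 0.5), a scale that understates changes of low genes. Against Nutlin, the differences of the division kinases ranged from -3.55 (NEK2) to -5.63 (AURKB) on that scale, with adjusted p-values of at most 7.95e-07 (limma), where 17.3% of the 15927 genes tested were lower and 17.1% higher. PLK2 was at 393, 272 and 255 CPM, and replicate 1 stood apart from the other libraries of its group. The log2 difference of PLK2 was -0.23 ± 0.17 (adjusted p = 0.338, limma), but it became -0.47 (adjusted p = 0.00927, limma) without N+PD24 replicate 1, and its adjusted p was 0.0498 with the replicate number as a block. PLK3 was at 16.6, 12.2 and 19.4 CPM, overlapping with Nutlin, with a log2 difference of 0.43 ± 0.23 (adjusted p = 0.173, limma). With the block, which the deviations of these libraries bore out, PLK3 passed at an adjusted p of 0.00764 (limma), and it passed without Nutlin replicate 3 at 0.66 on the log2 scale (adjusted p = 0.0373, limma).

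Within cells already treated with PD0332991, few division kinases passed the test of a Nutlin response, while PLK3 rose again. Counts of the division kinases were low there, so not passing does not mean no change. Between N+PD30 and PD30, AURKA fell by 0.78 ± 0.18 on the log2 scale (adjusted p = 0.0270, edgeR), and no other division kinase passed, against 5.64% of the 15077 genes tested lower and 8.84% higher. AURKA lost the call without PD30 replicate 1 or 2 or N+PD30 replicate 1 or 2 (adjusted p up to 0.108, edgeR). TTK (-1.45 ± 0.43, adjusted p = 0.0567), BUB1 (-0.85 ± 0.26, adjusted p = 0.0618) and BUB1B (-0.87 ± 0.29, adjusted p = 0.0766) lay below each PD30 library in every N+PD30 library. With the replicate number as a block, these 3 genes passed at adjusted p-values of 0.0199, 0.0335 and 0.0223 (edgeR). The deviations of same-numbered libraries correlated at 0.19 to 0.64 in this comparison, but only 4 of 6 libraries matched their own number best. TTK and BUB1 also passed with DESeq2 (adjusted p = 0.0470 and 0.0328). NEK2 (-0.77 ± 0.28, adjusted p = 0.0979, edgeR) also lay below each PD30 library in every N+PD30 library. PLK4 (-0.79 ± 0.41, adjusted p = 0.208, edgeR) overlapped between the groups. PLK1 stayed at 3.31 to 4.70 CPM beside 3.34 to 4.41 CPM in PD30, a log2 difference of 0.19 ± 0.18 (adjusted p = 0.480, edgeR).

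PLK3 went from 6.96, 8.68 and 10.6 CPM in PD30 to 23.1, 27.7 and 32.0 CPM in N+PD30. The groups were well apart, and the rise was 1.75 ± 0.18 on the log2 scale (adjusted p = 0.000816, edgeR), or 3.36-fold. PLK2 rose from 285, 295 and 283 CPM to 358, 362 and 340 CPM, by 0.39 ± 0.09 on the log2 scale (adjusted p = 0.0270, edgeR). The call on PLK2 was lost without any 1 of the 3 PD30 libraries or N+PD30 replicate 2, with an adjusted p up to 0.123, and the log2 value then stayed between 0.37 and 0.42. The 14 p53 targets rose in 14 of 14 cases in this comparison, with a median of 2.44, where 8.84% of all genes rose and their median was -0.01, led by BTG2, an antiproliferative regulator (4.62), and CDKN1A (4.34). In PD30 against DMSO, 9 of the 14 were lower and 2 higher, with a median of -0.52, where 25.4% of all genes were lower and 22.9% higher.

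After the shorter schedule, Nutlin lowered 3 division kinases. Between N+PD24 and PD24, TTK fell by 1.18 ± 0.25 (adjusted p = 0.00414), AURKA by 1.14 ± 0.17 (adjusted p = 0.000658) and PLK4 by 0.80 ± 0.25 (adjusted p = 0.0273) on the log2(CPM + 0.5) scale in limma, where 20.1% of the 15531 genes tested were lower and 17% higher. PLK4 lost the call in 4 fits, without PD24 replicate 1 or 2 or N+PD24 replicate 2 or 3, with an adjusted p up to 0.0952 (limma). TTK kept its call, but it had only 4 to 16 reads in the N+PD24 libraries. That was at most 0.433 CPM, below the 0.5 CPM added, and its log2 value ran from -2.03 to -0.84 over the alternatives. PLK3 rose from 10.2, 10.3 and 9.10 CPM to 16.6, 12.2 and 19.4 CPM, by 0.79 ± 0.18 (adjusted p = 0.00605, limma). PLK2 did not pass, with a log2 difference of -0.03 ± 0.18 (adjusted p = 0.905, limma). In this comparison, the PLK2 libraries of N+PD24 spread over a wider range than those of PD24, and both groups overlapped.

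**Figure D2:**
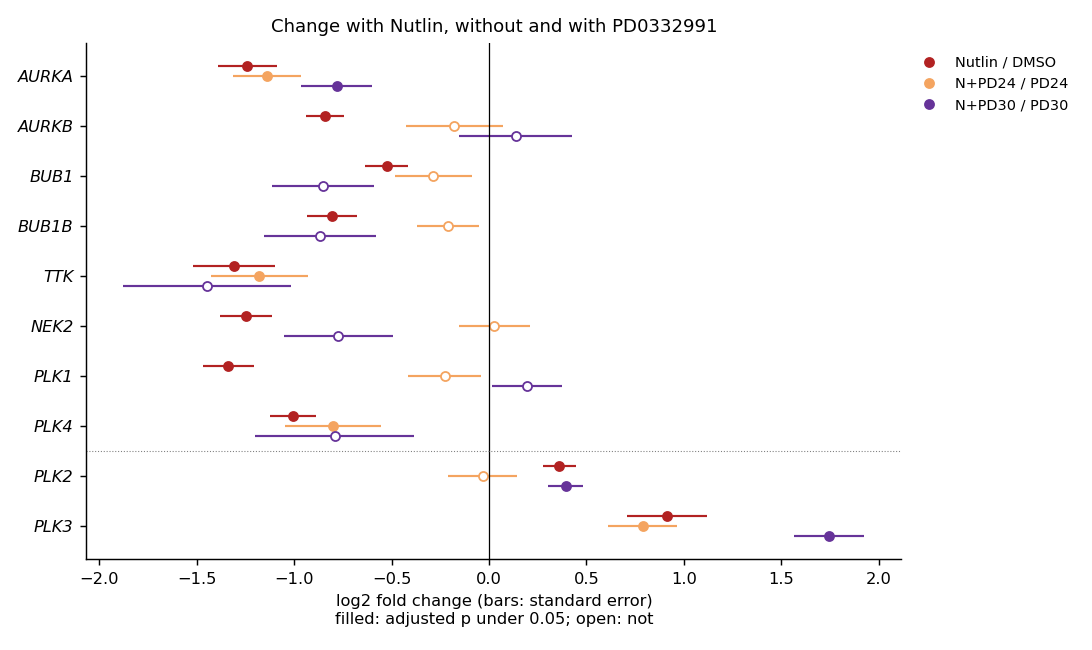
Log2 fold change with Nutlin (x axis, with its standard error) for each kinase in cells without PD0332991, after PD24 and in PD30, where filled points passed an adjusted p of 0.05. PLK1 moved from -1.34 without PD0332991 to 0.19 in PD30, while PLK3 was raised in all 3 settings, by 0.91, 0.79 and 1.75.

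The difference between these Nutlin responses was tested with an interaction term over 12 libraries. For PLK1, the response to Nutlin in PD30 exceeded that without PD0332991 by 1.59 ± 0.21 on the log2 scale (adjusted p = 0.000379, edgeR), and for AURKB by 1.05 ± 0.25 (adjusted p = 0.0105, edgeR). The AURKB value rested on low counts, 8 to 40 reads in the N+PD30 libraries, and became 0.73 (adjusted p = 0.101, edgeR) without N+PD30 replicate 2. Of all 16113 genes tested, 7.03% had a lower and 12.8% a higher response. For BUB1B (-0.01 ± 0.21) and TTK (-0.06 ± 0.47) the interaction value was near 0, though with a wide error for TTK. Over the alternatives it ran from -0.26 to 0.24 for BUB1B and from -0.93 to 0.24 for TTK. AURKA passed at 0.69 (adjusted p = 0.0482) without Nutlin replicate 1 and NEK2 at 0.82 (adjusted p = 0.0494) without PD30 replicate 1. PLK3 had an interaction value of 0.88 ± 0.30 (adjusted p = 0.0504, edgeR). It passed with DESeq2 (adjusted p = 0.0343) and without the filter on low counts (adjusted p = 0.0406, edgeR). With the replicate block its adjusted p was 0.0147 (edgeR), but that pairing was not borne out between DMSO and Nutlin (lowest r = -0.24). PLK3 also passed without Nutlin replicate 3, PD30 replicate 3 or N+PD30 replicate 1, at adjusted p-values from 0.00761 to 0.0388 (edgeR).

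For the shorter schedule, the interaction value was 1.28 ± 0.23 for NEK2 (adjusted p = 0.0142, limma) and 1.12 ± 0.22 for PLK1 (adjusted p = 0.0238, limma), where 0.65% of the 16301 genes tested had a lower and 0.791% a higher response. NEK2 was at 1.39, 1.56 and 1.44 CPM in PD24 and at 1.48, 1.60 and 1.05 CPM in N+PD24. These groups overlapped, whereas in cells without PD0332991 Nutlin lowered NEK2 from 57.8, 56.3 and 61.3 CPM to 26.4, 17.8 and 23.5 CPM. With quantile normalization the NEK2 value was 0.89 (adjusted p = 0.107, limma). With edgeR on the recovered reads the PLK1 value was 1.10 (adjusted p = 0.0514), and PLK1 also lost the call in 7 of the fits that leave out 1 library. These were the fits without DMSO replicate 1 or 2, Nutlin replicate 2, PD24 replicate 1 or 3, or N+PD24 replicate 2 or 3, with an adjusted p up to 0.0787 (limma).

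Continued and interrupted inhibition were also compared in the presence of Nutlin. PLK1 was at 1.52, 2.22 and 2.09 CPM in N+PD24 and higher in each N+PD30 library, by 0.81 ± 0.19 on the log2 scale (adjusted p = 0.0102, limma). PLK3 was higher in N+PD30 as well, by 0.67 ± 0.18 (adjusted p = 0.0203, limma), with 16.2% of the 15566 genes tested lower and 15.7% higher. The PLK3 call was lost without N+PD24 replicate 2 or N+PD30 replicate 2 (adjusted p up to 0.0856, limma). PLK2 did not pass (0.12 ± 0.17, adjusted p = 0.630, limma). No other kinase passed, although AURKB did with quantile normalization (0.74, adjusted p = 0.0421, limma), and the log2 values of the other 7 division kinases lay between -0.52 and 0.48.

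Since the division kinases fell and PLK2 did not, the make-up of the Polo-like transcripts shifted. Within a library, the DMSO group had 1.70 to 2.05 PLK2 reads per PLK1 read, and the Nutlin group had 5.39 to 7.16. In PD30 the ratio was 64.6 to 88.5, in PD24 114 to 153, in N+PD30 72.5 to 108 and in N+PD24 122 to 259. The 4 groups with PD0332991 overlapped among themselves in part but lay above all Nutlin and DMSO libraries. PLK3, at 0.0429 to 0.0445 reads per PLK1 read in DMSO and 0.153 to 0.251 in Nutlin, outnumbered PLK1 in each library with PD0332991, at 1.58 to 10.9 reads per PLK1 read. The share of PLK2 among the CPM of PLK1 to PLK4 was 56.5% to 59.7% in DMSO, 77.1% to 81.3% in Nutlin and 90.2% to 96.0% with PD0332991.

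**Figure D3:**
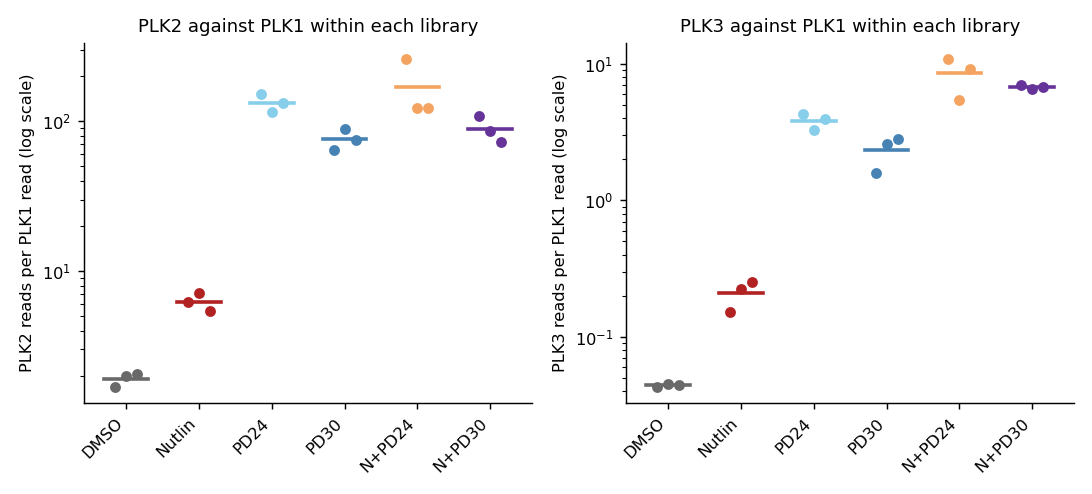
PLK2 reads (left) and PLK3 reads (right) per PLK1 read on log axes, with 1 point per library and a bar at the group mean. The PLK2 ratio was at most 2.05 in DMSO and at least 64.6 in every library with PD0332991, and the PLK3 ratio was at most 0.0445 and at least 1.58 in the same libraries.

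Across all 18 libraries the 8 division kinases varied together. The 28 pairs among them had Pearson correlations of log2(CPM + 0.5) from 0.958 to 0.998, as a description, since the 18 libraries fall into 6 groups that set most of the range and share the same depth within each library. PLK2 correlated with the 8 kinases at 0.156 to 0.241, and PLK3 at -0.579 to -0.410. Of 10892 genes with a mean of at least 5 CPM, the 3 most like PLK1 were WHSC1, a histone methyltransferase (r = 0.994), CCNA2, cyclin A2 (r = 0.994), and GTSE1, a G2- and S-phase microtubule protein (r = 0.993). Those most like PLK3 were EPHA2, a receptor tyrosine kinase (r = 0.947), PHLDA3, an inhibitor of AKT (r = 0.930), and SLC12A4, a potassium-chloride cotransporter (r = 0.922). For PLK2 the closest were MNF1 (r = 0.744), ALG14 (r = 0.702) and SLIRP (r = 0.667), so no gene followed PLK2 as closely as others followed PLK1 and PLK3. PLK2 varied only between 255 and 393 CPM, and so narrow a range limits how high such a correlation can be.

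The partners of these kinases were read from lists of general knowledge. Of 7 chromosomal passenger and Aurora activator genes, 6 fell in PD30 against DMSO, and their median was -3.08 on the log2 scale. Of all genes in this comparison 25.4% fell, and the median was 0.00. CDCA8 (borealin), which tethers AURKB to the centromere, fell by 6.20 and TPX2, the spindle activator of AURKA, by 5.45 on the log2 scale. AJUBA, the exception, was at -0.09 and did not pass. All 14 of the 14 spindle checkpoint and anaphase genes tested fell, with a median of -3.37, led by ESPL1 (separase, -6.95) and CASC5 (the kinetochore scaffold of BUB1 and BUB1B, -6.37). Of 7 centriole duplication genes, 6 fell, with a median of -2.76, among them STIL (-3.83) and CENPJ (-3.04), which act with PLK4, while CEP63 did not pass (-0.02).

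Other kinases of cell division were mixed. Of 15 tested, 11 fell and 3 rose in PD30 against DMSO, with a median of -1.98, where 25.4% of all genes fell and 22.9% rose. PKMYT1, which inhibits CDK1, had a log2 fold change of -6.19 and CDK1 itself one of -6.07. The 3 that rose were NEK6 (0.55), NEK9 (0.59) and LATS2 (0.50), a share near that of all genes. In Nutlin against DMSO, where 28% of all genes were lower and 26.6% higher, the same list had 7 lower and 2 higher of 15, with a median of -0.31. The passenger list had 7 of 7 lower (median -0.61), the checkpoint list 8 lower and 1 higher of 14 (median -0.40) and the centriole list 4 lower and 1 higher of 7 (median -0.69), against 0.03 over all genes. MAD1L1 rose by 0.76 and CCP110 by 0.59 on the log2 scale as the exceptions of the last 2 lists. In N+PD30 against PD30, where 5.64% of all genes were lower and 8.84% higher, the passenger list had 1 of 7 genes lower and the kinase list 2 of 14, with 0 higher in both. The checkpoint list had 0 of 14 lower and 1 higher (MAD1L1, 0.83), and the centriole list had 1 of 7 lower (CEP135, -0.61) and 1 higher (CCP110, 1.44).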

How the data were processed

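RNA-seq libraries from 18 samples of SJSA-1 cells were grouped by their labels. The authors mapped reads to hg19 with TopHat and Bowtie2, counted them per gene symbol with HTSeq 0.6.0 under a reverse-strand setting, and deposited the counts of 5 groups. For N+PD24 the deposited signal is the read count over a constant of each library. Multiplied back, 100% of its values were whole, giving 24398809 to 36939725 reads. The deposited tables of normalized signal for 2 group pairs and the authors' comparison of Nutlin with DMSO (log2 fold changes, score and p-values) were not used. Of the 23368 gene rows, 28 names had been turned into dates.

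Counts were tested with edgeR 4.0.16 (R 4.3.3; TMM, filterByExpr, quasi-likelihood) on the 2 groups compared or the 12 libraries of an interaction, and comparisons with N+PD24 with limma 3.58.1 on log2(CPM + 0.5). P-values were Benjamini-Hochberg adjusted over all genes tested, and 0.05 was the threshold. The standard errors of edgeR values, also in the figures, were the log2 value over the square root of the test's F statistic. This approximation can be too small at low counts and for values near 0. Some of the tests were also run on simulated counts with the same spread for every gene, a setting simpler than these data. All 10 kinases are named. Other genes named are the 3 whose profile is most like PLK1, PLK2 or PLK3, and the 2 largest changes of a list among those past the threshold. Exceptions of a list were named after their values were seen. The kinases and lists were chosen with earlier results of these data known. Alternatives were DESeq2 1.42.0, other scalings, filters and pseudocounts (0.1 and 1), a replicate block, leaving out each library and, chosen after seeing the data, edgeR on the recovered reads.

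The fits reported have no replicate block. The blocked fit is given beside a result where the deviations of all 3 same-numbered pairs correlated above 0.1, which held in 4 of 9 comparisons of 2 groups: PD30 with PD24, N+PD24 with Nutlin, N+PD30 with PD30 and N+PD24 with PD24. The exception is PLK3 in the interaction with PD30, which includes pairs that did not meet this rule. The pairing rests on these correlations in the same libraries that were tested, since the labels give only numbers.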

Additional observations from a re-analysis of the deposited data

Results flagged for a closer look

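Of the responses to Nutlin, 4 differed between cells with and without PD0332991 by a test of the difference itself. Of all 16113 genes tested for PD30, 7.03% had a lower and 12.8% a higher response, so a call alone was common there. For PD24 the shares were 0.65% and 0.791% of 16301 genes. In PD30 the log2 response exceeded that without PD0332991 by 1.59 for PLK1 (adjusted p = 0.000379, edgeR's interaction term over 12 libraries) and by 1.05 for AURKB (adjusted p = 0.0105). Every Nutlin library lay below every DMSO library for both genes, whereas N+PD30 and PD30 overlapped. After PD24 the excess was 1.28 for NEK2 (adjusted p = 0.0142, limma) and 1.12 for PLK1 (adjusted p = 0.0238, limma). Both genes were at or below 3.12 CPM in every PD24 and N+PD24 library, and the part of this low level in the difference was not tested. Of the 4 values, 3 lost the call in an alternative. AURKB lost it without N+PD30 replicate 2 (0.73, adjusted p = 0.101, edgeR) and NEK2 with quantile normalization (0.89, adjusted p = 0.107, limma). PLK1 after PD24 lost it in 8 alternatives, with an adjusted p up to 0.0787 (limma).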

How the results depend on the processing

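Over 110 values of the 10 kinases in 11 comparisons, 93 had a direction, and of 1149 alternative values for these, 1088 kept direction and call, 32 lost the call, 29 gained it and 0 changed sign. The other 17 values passed in no setting and had no stable sign. The 40 values of the 8 division kinases in the comparisons of Nutlin, PD24 and PD30 with DMSO and of N+PD30 and N+PD24 with Nutlin kept their call in 456 of 456 alternatives.

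Counts of kinases called moved as follows. In PD30 against PD24 the 1 lower call became 2 with DESeq2 and 3 with the replicate block, and 0 to 4 when 1 library was left out. In N+PD30 against PD30 the 1 lower call became 3 with DESeq2, 4 with total counts in place of TMM, 3 without the filter on low counts and 4 with the replicate block, and 0 to 1 when 1 library was left out, where the 2 higher calls became 1 to 2. In N+PD24 against Nutlin the 8 lower calls became 9 and the 0 higher calls 1 with the replicate block, and 8 to 9 and 0 to 1 when 1 library was left out. In N+PD24 against PD24 the 3 lower calls became 2 to 3 when 1 library was left out. In the interaction with PD24 the 2 higher calls became 1 with quantile normalization, 1 with edgeR on recovered reads and 1 to 2 when 1 library was left out. Leaving out 1 library gave 0 to 1 higher calls in PD24 against DMSO, 1 to 2 in N+PD30 against N+PD24 and 1 to 3 in the interaction with PD30, in place of 1, 2 and 2. The count was 3 in N+PD30 against N+PD24 with quantile normalization, and 3 in the interaction with PD30 with DESeq2, without the filter and with the block. The causes of these moves were not tested. TTK could not be fitted with edgeR on recovered reads in N+PD30 against N+PD24, because it did not pass the filter. Outside the 4 paired comparisons, the block changed the call of PLK3 in the interaction with PD30.

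Scaling moved the split of all genes called. In Nutlin against DMSO 51.3% of the calls were lower with TMM, 63.3% with total counts and 41.1% with the upper quartile, with the median of all genes shifted by -0.13 and 0.11, and the kinases kept 8 lower and 2 higher calls under each. The lower share was 38.9% and 56.2% with total counts in N+PD30 against PD30, 54.2% and 69.3% with the library total in N+PD24 against PD24, 50.8% and 38.2% with the library total in N+PD30 against N+PD24, and 35.5% and 61.0% with the upper quartile in the interaction with PD30, where the median shifted by -0.18. Depth limits the kinases at 1 CPM or less, such as TTK with 2 to 15 reads in N+PD30.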

Other observations

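Genes around mitotic entry and its transcription followed the division kinases. In PD30 against DMSO, where 25.4% of all genes fell, 6 of 6 mitotic entry phosphatases and cyclins fell, with a median log2 fold change of -4.64, led by CCNA2 (-5.60) and CDC25C (-5.47), and in Nutlin, where 28% of all genes fell, 6 of 6 fell, with a median of -1.03, led by CDC25A (-2.87). Of 13 transcriptional regulators of G2/M genes, 10 fell in PD30 (median -0.98), among them MYBL2 (-4.97) and LIN9 (-4.57), while LIN37 (0.03), RBL2 (-0.01) and E2F4 (-0.01) did not pass. In Nutlin, 9 of the 13 fell, with a median of -0.55. These counts come from edgeR at an adjusted p under 0.05.

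Among 10 immediate-early and stress genes, 4 fell and 1 rose in PD30 against DMSO, beside 25.4% and 22.9% of all genes, with EGR1 at -2.27 and FOS at -2.04 on the log2 scale. In PD30 against PD24, 6 of the 10 were lower and 0 higher, with a median of -0.89, beside 12.9% and 12.2% of all genes, led by JUN (-1.70) and JUNB (-1.49). PLK2, first known as a serum-inducible kinase, had a log2 difference of -0.28 in the same comparison and did not pass (adjusted p = 0.0843, edgeR), but passed with the replicate block and without PD24 replicate 3. The 3 endothelial markers summed to 1.85 to 15.4 CPM per library, and their part in any result was not tested.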
